A study of Rattus norvegicus with 47 samples.

Results

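The genes described here encode the subunits of the respiratory chain and of ATP synthase that are made from nuclear DNA, read in rat kidneys 12 months after metal pellets were implanted. Members were taken by symbol: Nduf followed by a, b, c, s or v and a digit, Sdha to Sdhd, symbols that begin with Uqcr, Cyc1, Cox4 to Cox8 followed by a letter, and symbols that begin with Atp5. The rule found 89 of the 22525 genes in the count table, with 38 in complex I, 4 in complex II, 9 in complex III, 20 in complex IV and 18 in complex V (ATP synthase). The rule uses names and no measured value. Of the 89 members, 85 passed the filter on low counts and were tested, and 76 both averaged at least 10 CPM (counts scaled to a common library depth) over all 47 libraries and were not copies of another gene. These 76 are called the expressed subunits. They include the ATP synthase inhibitor Atp5if1, counted under complex V. They also include Cox7a2l, a factor of supercomplexes (complexes joined together), counted under complex IV.

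Each kidney came from a rat given pellets of tungsten (W, 8 libraries), depleted uranium (DU, 8), cobalt (Co, 8), lead (Pb, 7) or aluminium (Al, 8), or pellets of tantalum (Ta, 8), which the series description calls inert and against which it sets the others. Pellets were cylinders of 1 by 2 mm, rats were assigned to metals at random, and 7 of the 8 rats planned for Pb are among the libraries used here. No unimplanted animals are among the libraries used here, and strain, sex and age are not given in the sources used here. The codes in the sample titles run in consecutive blocks that follow the metals, and no label says what they stand for; if they mark an order of handling, that order and the metal cannot be told apart.

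Complex I takes electrons from NADH and complex II takes them from succinate. Complex III passes them on to cytochrome c, complex IV gives them to oxygen, and complex V uses the proton gradient built by complexes I, III and IV to make ATP. The catalytic cores of complexes I, III and IV hold subunits encoded in mitochondrial DNA, around which many small nuclear-encoded subunits are arranged. Complex V also holds subunits encoded in mitochondrial DNA, whereas complex II is wholly nuclear. The kidney, its proximal tubule above all, is among the tissues richest in mitochondria, because reabsorption of salt and solutes is paid for in ATP.

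Each library is taken as 1 rat, as the design text implies. Total counts lay between 21604755 and 35775818 per library, with a median of 26363810. Proximal tubule markers were abundant, summing to 1588 to 18865 CPM, whereas skeletal muscle markers summed to at most 16.0 CPM. Several libraries stood apart. DU replicate 6 had the lowest proximal tubule markers (a mean log2 CPM of 5.95, against 9.05 to 9.37 in Ta kidneys) and, at 7.12, the lowest mean log2 CPM of the expressed subunits. Pb replicate 4 had the highest mean, 8.78, against 8.31 to 8.44 in the other Pb kidneys. In some groups the libraries numbered 5 to 8 lay apart from those numbered 1 to 4. Endothelial markers in libraries 5 to 8, against 1 to 4, averaged 3.05 to 3.53 against 4.77 to 5.24 log2 CPM with W, 2.56 to 3.68 against 3.802 to 5.28 with Co, 2.32 to 3.36 against 3.31 to 4.78 with Al and 4.70 to 5.17 against 4.77 to 5.14 with Ta, without overlap in W and Co. Podocyte markers averaged 3.44 to 4.44 against 4.48 to 5.18 with W and 1.98 to 3.19 against 4.51 to 5.02 with Al. Proximal tubule markers averaged 7.72 to 8.65 against 9.52 to 9.76 with W and 7.86 to 8.21 against 8.35 to 8.86 with Al. Both lists overlapped in the other groups. Fibroblast and pericyte markers were 3.23 to 4.10 against 4.83 to 5.40 with W and overlapped elsewhere. The subunit mean was 8.03 to 8.16 in Co libraries 5 to 8 and 7.83 to 7.85 in Co libraries 1 to 4, and it was 7.76 to 7.99 in W libraries 5 to 8 and 7.65 to 7.84 in W libraries 1 to 4, against 7.14 to 7.63 over all Ta libraries. No label says that the numbers mark a batch, the split was seen in the values, and its part in the subunit results was not tested. Counts over all members are given with and without DU replicate 6 and Pb replicate 4.

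Compared with Ta, most of these subunit genes rose with Pb, Co, Al and DU, and a smaller number rose with W. By edgeR's quasi-likelihood test with Benjamini-Hochberg adjustment over all 15868 tested genes, 74 of 85 tested members rose in Pb kidneys at an adjusted p under 0.05, where 24.5% of all genes were higher. With Co, 70 of 85 rose (13.6% of all genes), with Al 70 (12.8%), with DU 54 (7.89%) and with W 18 (1.42%). None of the 85 was lower by this test in any of these 5 comparisons, in which 0.366% (W), 12.2% (Co), 12.4% (Al), 29.2% (Pb) and 7.39% (DU) of all genes were lower. At an unadjusted p under 0.05, 1 was lower with W, 1 with Co, 0 with Al, 0 with Pb and 2 with DU. DESeq2 called 1 lower with W and 1 with Co, and limma 1 with Al and 3 with Pb. The W count depended on single libraries, being 1 without W replicate 5 (0.0315% of all genes) and 55 without DU replicate 6 (5.2%), whose spread enters the shared fit. In bulk kidney RNA a change in the share of cells and a change in RNA per cell cannot be told apart. Among the 76 expressed subunits the calls were 18 with W, 69 with Co, 68 with Al, 72 with Pb and 54 with DU.

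The median log2 fold change of the expressed subunits over Ta was 0.35 with W, 0.55 with Co, 0.60 with Al, 1.03 with Pb and 0.47 with DU, whereas over all tested genes it was -0.03, -0.07, -0.04, -0.07 and -0.01. All 5 comparisons share the same 8 Ta kidneys. Pb kidneys had the highest mean for 71 of 76 expressed subunits, and Ta kidneys the lowest for 68. Every Pb library lay above every Ta library for 70 of the 76 (13% of all tested genes did so). Such separation held for 45 subunits with Co (2.07%), 43 with Al (3.49%), 14 with W (0.366%) and 6 with DU (2.02%). Without DU replicate 6 it held for 24 with DU (2.62%).

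**Figure D1:**
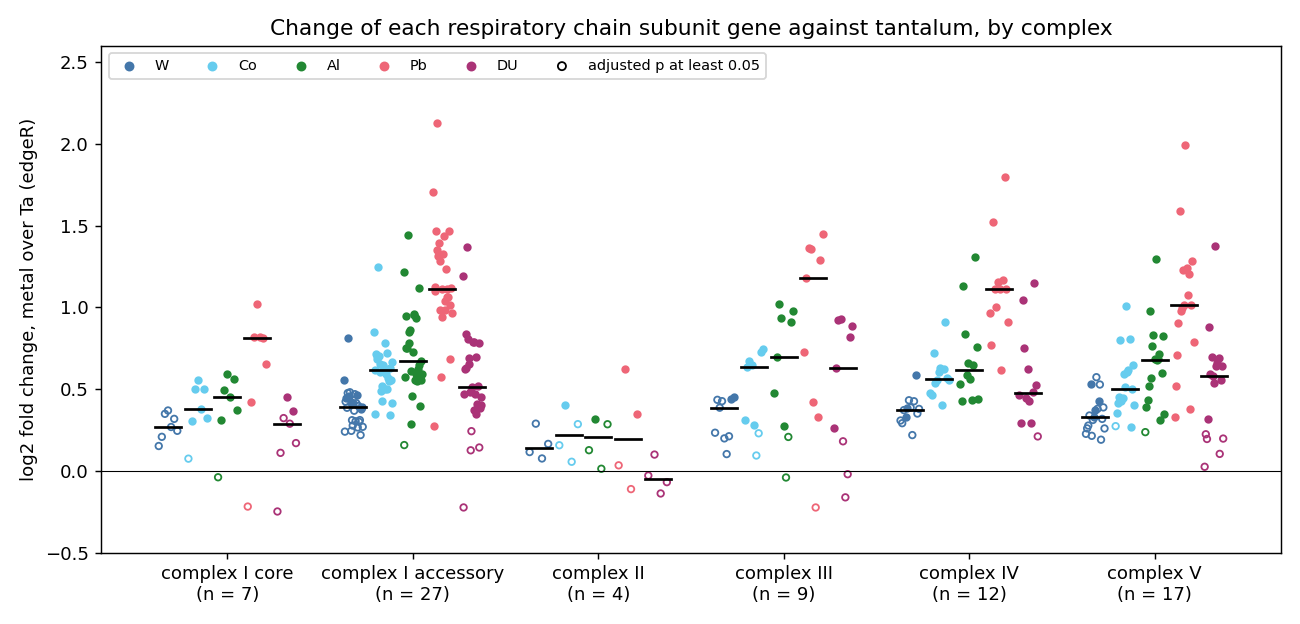
The vertical axis gives the log2 fold change of each expressed subunit gene over Ta, the horizontal axis the complex, and the colours the metal; filled points passed an adjusted p of 0.05 and bars mark medians. The Pb median is the highest in complexes I, III, IV and V, with complex I accessory genes up to 2.13, while complex II stays between -0.14 and 0.62.

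Almost every accessory subunit of complex I rose with Co, Al and Pb. Of 27 expressed accessory subunits, which surround the core and take no direct part in electron transfer, 27 rose with Co and with Pb, 26 with Al, 23 with DU and 9 with W. Their median log2 fold change was 1.11 with Pb, 0.67 with Al, 0.61 with Co, 0.51 with DU and 0.39 with W. The 7 core subunits, most of which carry the flavin or iron-sulfur clusters or help to bind ubiquinone, gave 6 calls each with Co, Al and Pb, 2 with DU and 0 with W (with W, 6 were higher at an unadjusted p under 0.05, and limma called 0 and DESeq2 1), and a median of 0.81 with Pb.

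Ndufa3, a small accessory subunit of the membrane arm, had the largest Pb change among the expressed subunits. Its lowest, median and highest CPM were 52.3, 85.02 and 96.7 in W, 77.9, 94.4 and 155 in Co, 101.8, 122.9 and 154 in Al, 143.99, 189.8 and 308 in Pb, 58.5, 111 and 198 in DU and 38.1, 43.6 and 54.7 in Ta kidneys. All libraries of Co, Al, Pb and DU and 7 of 8 W libraries lay above every Ta library. The log2 fold change over Ta was 0.81 ± 0.18 (SE) with W, 1.25 ± 0.18 with Co, 1.44 ± 0.18 with Al, 2.13 ± 0.19 with Pb and 1.37 ± 0.18 with DU (adjusted p = 0.0279, 7.68e-06, 7.21e-08, 1.11e-12 and 3.98e-07). Ndufa1, another small membrane subunit that complex I assembly requires, stood at 58.1, 76.5 and 84.3 in W, 78.5, 90.0 and 109 in Co, 98.7, 111 and 140.4 in Al, 135.1, 156 and 220.3 in Pb, 75.3, 115 and 154 in DU and 42.2, 53.2 and 56.1 in Ta kidneys (lowest, median and highest CPM). In all 5 metals every library exceeded every Ta library, and the log2 fold changes were 0.55, 0.85, 1.22, 1.70 and 1.19 in the order W, Co, Al, Pb and DU (adjusted p from 0.0198 with W to 1.32e-15 with Pb). Ndufa13, also known as Grim-19, rose by 1.47 ± 0.11 with Pb and 0.84 ± 0.11 with DU, and Ndufb8, a subunit of the membrane arm, by 1.06 ± 0.14 and 0.41 ± 0.13 (adjusted p of the DU change 4.79e-07 and 0.0254).

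Core subunits of complex I ranged from clear rises to no call. Ndufv1, which binds NADH and the flavin, stood at 337, 386 and 462 in W, 378, 443 and 490.3 in Co, 378, 459 and 561 in Al, 482, 561 and 619 in Pb, 235, 441 and 523 in DU and 237, 317 and 357 in Ta kidneys (lowest, median and highest CPM). It rose by 0.50 ± 0.11 with Co, 0.56 ± 0.11 with Al, 0.81 ± 0.11 with Pb and 0.36 ± 0.11 with DU (adjusted p = 0.000946, 0.000174, 5.44e-08 and 0.0169). Every Co, Al and Pb library, but 6 of 8 DU libraries, exceeded the Ta range. Ndufs7, which carries the iron-sulfur cluster next to ubiquinone, rose by 1.02 ± 0.14 with Pb (adjusted p = 6.60e-08), with all 7 Pb libraries above every Ta library. Ndufs1, the largest core subunit, which carries several iron-sulfur clusters, gave no call in any metal: its values were 275, 342 and 386 in W, 271, 332 and 349.6 in Co, 209.6, 297 and 348 in Al, 247, 264 and 284 in Pb, 107, 289.7 and 297 in DU and 212, 314 and 362 in Ta kidneys. Each metal overlapped Ta, and its log2 fold changes ran from -0.25 ± 0.12 with DU to 0.15 ± 0.12 with W (SE; adjusted p = 0.17 and 0.473). Without DU replicate 6 the DU value was -0.10 ± 0.09 (adjusted p = 0.54). All 7 Pb libraries lay below the Ta median. Of the 7 core subunits, limma called 1 lower with Pb and DESeq2 0. Ndufs1 was the only core subunit with a lower mean log2 CPM in Pb than in Ta kidneys (8.04 against 8.25). Ndufs1, Ndufa10, Uqcrc2, Uqcrfs1, Cyc1, Cox5a and Atp5f1a are outside the rule for named genes and were chosen after their values were seen.

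Of the 4 subunits of complex II, 2 rose with Pb, 1 with Co, 1 with Al and 0 with W and DU. At an unadjusted p under 0.05, 1 was higher with W and 0 with DU; limma called 1 higher with W and 1 with DU, and DESeq2 0 with either. Sdha, the flavoprotein that oxidises succinate, held 577, 695 and 746 in W, 569, 705 and 803 in Co, 491, 695 and 783 in Al, 611, 641 and 684 in Pb, 284, 687 and 729 in DU and 457, 636 and 721 in Ta kidneys (lowest, median and highest CPM). These ranges overlapped in every comparison, and its log2 fold changes lay between -0.03 ± 0.12 with DU and 0.16 ± 0.12 with Co (adjusted p = 0.905 and 0.317). Without DU replicate 6 the DU value turned to 0.11 ± 0.09 (adjusted p = 0.478). Sdhb, the iron-sulfur subunit that takes the electrons onward, held 331, 362 and 416 in W, 358, 374 and 456 in Co, 315, 370.2 and 440.0 in Al, 438, 452 and 514 in Pb, 175, 339.9 and 389.6 in DU and 251, 302 and 343 in Ta kidneys. It rose by 0.40 ± 0.10 with Co, 0.32 ± 0.10 with Al and 0.62 ± 0.10 with Pb (adjusted p = 0.003, 0.015 and 1.62e-06), with all Co and Pb libraries and 6 of 8 Al libraries above every Ta library. Of the membrane anchors, Sdhd rose with Pb alone among the tests (0.35 ± 0.13, adjusted p = 0.0185, 7 of 7 libraries above Ta), and Sdhc gave no call, at -0.11 ± 0.11 with Pb (adjusted p = 0.397).

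In complex III the small subunits gave a call with each of 4 metals. All 5 small subunits (Uqcrb, Uqcrh, Uqcrq, Uqcr10 and Uqcr11) rose with Co, Al, Pb and DU, by 1.18 to 1.45 with Pb, and 2 of them rose with W. Uqcrq, known as the ubiquinone-binding protein of the complex, held 196, 203 and 226 in W, 196, 258 and 307 in Co, 239, 302 and 346 in Al, 359, 387 and 561 in Pb, 187, 291 and 341 in DU and 116, 149.6 and 197 in Ta kidneys (lowest, median and highest CPM). All Al and Pb libraries, 7 of 8 Co and DU libraries and 6 of 8 W libraries exceeded the Ta range, and it rose by 0.45 ± 0.12 with W, 0.75 ± 0.12 with Co, 0.98 ± 0.12 with Al, 1.45 ± 0.12 with Pb and 0.89 ± 0.12 with DU (adjusted p = 0.0401, 2.24e-05, 3.22e-08, 3.39e-13 and 4.31e-07). Uqcrh, the hinge protein between cytochromes c1 and c, rose by 0.44, 0.73, 0.91, 1.29 and 0.82 with W, Co, Al, Pb and DU.

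Of the large subunits, the core protein Uqcrc1 rose with Co, Al and Pb (0.28 ± 0.09, 0.27 ± 0.09 and 0.42 ± 0.09; adjusted p = 0.0189, 0.0216 and 0.000178). The second core protein, Uqcrc2, gave no call in any metal and held 281, 382 and 434 in W, 296, 372 and 398 in Co, 209, 336 and 393 in Al, 255, 295 and 321 in Pb, 171, 325 and 363 in DU and 263, 341 and 395 in Ta kidneys (lowest, median and highest CPM). Its Pb and Ta ranges overlapped, with all 7 Pb libraries below the Ta median, and with a log2 fold change of -0.22 ± 0.11 (adjusted p = 0.0957). Among the catalytic subunits, Cyc1, the cytochrome c1 that reduces cytochrome c, rose by 0.73 ± 0.09 with Pb (adjusted p = 2.88e-09), and the Rieske iron-sulfur protein Uqcrfs1 by 0.33 ± 0.10 (adjusted p = 0.00481).

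All 12 expressed subunits of complex IV, cytochrome c oxidase, rose with Co, Al and Pb, 11 rose with DU and 3 with W. Cox7c, a small membrane subunit, held 181, 217 and 259 in W, 219, 255 and 334 in Co, 259, 349 and 433 in Al, 395, 493 and 731 in Pb, 239, 333 and 389.8 in DU and 120.7, 145 and 176 in Ta kidneys (lowest, median and highest CPM). Each library of each of the 5 metals exceeded every Ta library. The changes were 0.59 ± 0.11 with W, 0.91 ± 0.12 with Co, 1.31 ± 0.12 with Al, 1.80 ± 0.12 with Pb and 1.15 ± 0.12 with DU (adjusted p = 0.0198, 1.47e-06, 3.98e-11, 8.85e-16 and 1.02e-09). Cox5b, the zinc-binding subunit on the matrix side, held 212, 235 and 284 in W, 279.5, 309 and 359 in Co, 340.4, 421 and 470.1 in Al, 477, 543 and 678 in Pb, 212, 419.8 and 486 in DU and 139.5, 185 and 223 in Ta kidneys. Every Co, Al and Pb library and 7 of 8 DU libraries lay above the Ta range, and it rose by 0.72 ± 0.11 with Co, 1.13 ± 0.11 with Al, 1.52 ± 0.12 with Pb and 1.05 ± 0.11 with DU, whereas the W change of 0.37 ± 0.11 did not pass (adjusted p = 0.0581). Cox4i1, the ubiquitous form of the largest nuclear subunit, rose by 0.47, 0.53, 0.96 and 0.47 with Co, Al, Pb and DU (adjusted p = 0.000478, 6.65e-05, 7.70e-11 and 0.00063).

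The Pb changes of Cox6a1, Cox6b1, Cox7a2 and Cox8a, the forms found outside heart and skeletal muscle or testis, were 1.12, 1.00, 1.11 and 1.12 (adjusted p from 1.80e-13 to 3.20e-08), with all 7 Pb libraries above every Ta library for each. Ndufa4, first described in complex I and since assigned to complex IV, rose with Co, Al and Pb (0.55, 0.44 and 0.91) and did not pass with DU (0.21 ± 0.14, adjusted p = 0.332; 0.34 ± 0.13 and 0.0729 without DU replicate 6). The tissue isoforms were low in all groups. Cox4i2, the lung form that hypoxia induces, averaged 1.76 ± 0.952 CPM in Pb and 2.41 ± 1.43 in Ta kidneys (SD), the muscle forms Cox6a2 and Cox8b 1.01 ± 0.596 and 1.03 ± 0.875 in Pb against 0.289 ± 0.413 and 0.234 ± 0.265 in Ta, and the testis form Cox6b2 0.827 ± 0.51 in Pb against 1.15 ± 0.534 in Ta. Of these, Cox8b rose with Pb (2.10 ± 0.80, adjusted p = 0.0234) on 2 to 52 counts per Pb library, 4 of 7 of them above every Ta library. The hypoxia-induced paralog Ndufa4l2 averaged 0.594 ± 0.396 CPM in Pb and 1.28 ± 0.321 in Ta kidneys, and its change of -1.11 ± 0.56 did not pass (adjusted p = 0.0942).

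All 17 expressed genes of complex V rose with Pb, 16 with Co and with Al, 12 with DU and 4 with W. Atp5me, subunit e, a small membrane protein at the interface of ATP synthase dimers, held 57.9, 74.9 and 81.8 in W, 69.4, 95.9 and 129.8 in Co, 98.3, 119.9 and 139.9 in Al, 153, 188 and 285 in Pb, 49.5, 127.8 and 220.5 in DU and 37.7, 51.3 and 58.6 in Ta kidneys (lowest, median and highest CPM). All Co, Al and Pb libraries and 7 of 8 W and DU libraries lay above the Ta range. It rose by 1.01 ± 0.17 with Co, 1.30 ± 0.17 with Al, 1.99 ± 0.18 with Pb and 1.38 ± 0.17 with DU (adjusted p = 5.47e-05, 2.94e-07, 1.99e-12 and 1.54e-07), and did not pass with W (0.57 ± 0.17, adjusted p = 0.0578). The 4 small membrane subunits changed by 1.08 to 1.99 with Pb, and all 4 rose with Co, Al, Pb and DU.

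Within the F1 head of complex V the largest Pb change was that of Atp5f1e. This epsilon subunit of the central stalk held 235, 267 and 283 in W, 233, 318 and 394 in Co, 274, 373 and 427 in Al, 458, 527 and 789.6 in Pb, 186, 343 and 465 in DU and 144.3, 190.0 and 213 in Ta kidneys (lowest, median and highest CPM). It rose by 0.53 ± 0.13 with W, 0.80 ± 0.13 with Co, 0.98 ± 0.13 with Al, 1.59 ± 0.14 with Pb and 0.88 ± 0.13 with DU (adjusted p = 0.0365, 5.12e-05, 6.76e-07, 1.23e-12 and 6.75e-06), and all libraries but 1 of DU exceeded the Ta range. Atp5f1b, the catalytic beta subunit, rose by 0.36 ± 0.12 with Co, 0.39 ± 0.12 with Al and 0.52 ± 0.12 with Pb (adjusted p = 0.0232, 0.0131 and 0.000367). Its partner Atp5f1a, the alpha subunit, rose with Pb only among the tests (0.33 ± 0.12, adjusted p = 0.0199, 7 of 7 libraries above Ta). Of the 3 genes that encode the same mature c-ring protein, Atp5mc2 rose by 1.23 ± 0.09 and Atp5mc3 by 1.01 ± 0.10 with Pb, and both rose in all 5 metals. Atp5if1, the inhibitor that stops the enzyme from running backwards, rose by 0.43, 0.57, 0.98 and 0.59 with Co, Al, Pb and DU (adjusted p from 0.000365 with Co to 2.16e-12 with Pb).

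**Figure D2:**
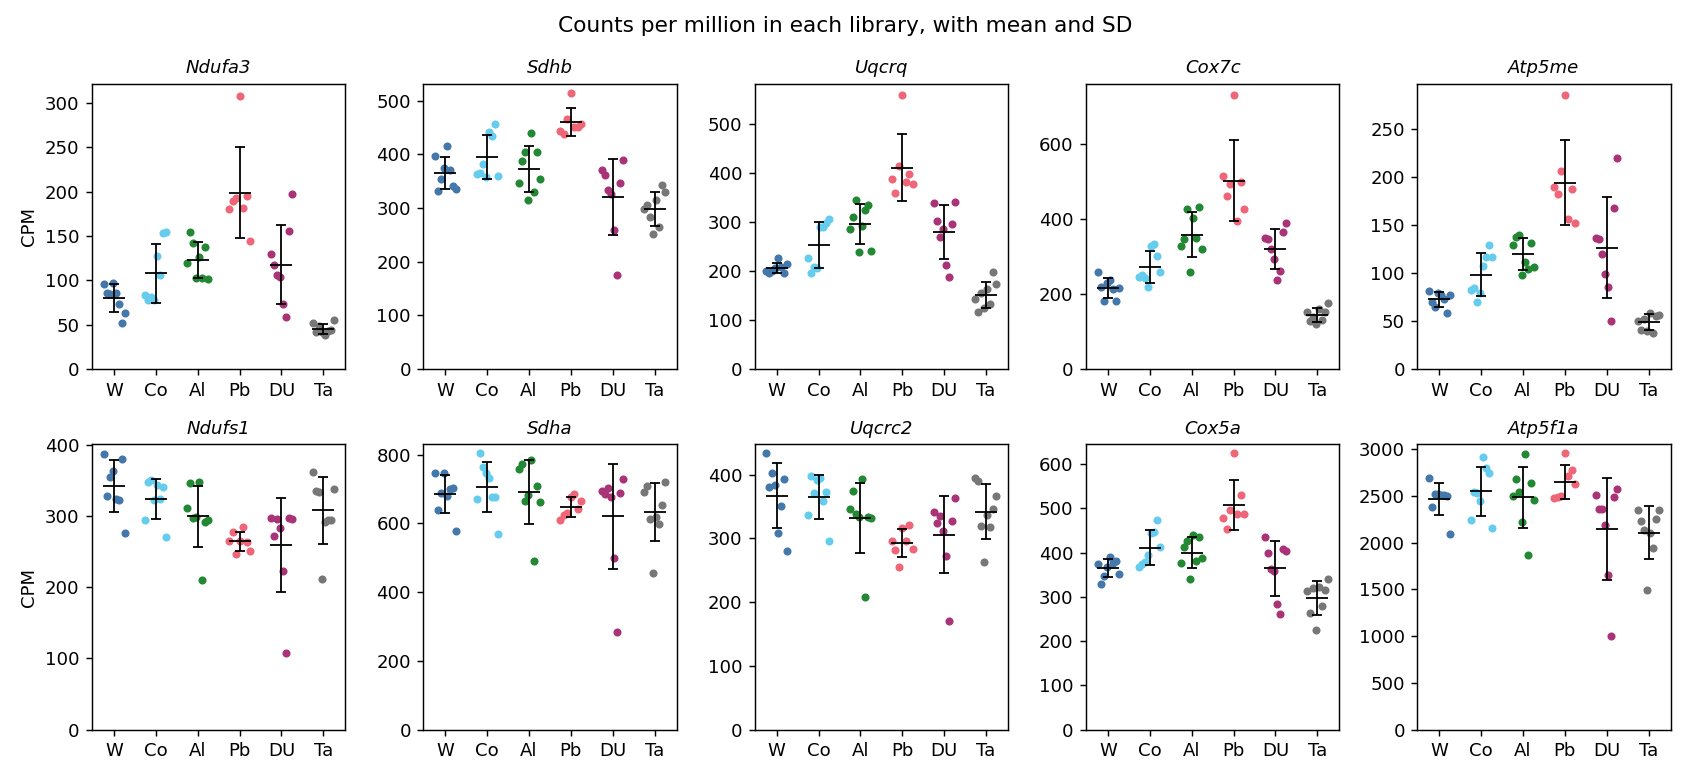
Each panel plots CPM of 1 gene on the vertical axis against the pellet metal, with 1 point per library and the mean and SD in black. In the upper row Ndufa3, Uqcrq, Cox7c and Atp5me have their highest mean with Pb and their lowest with Ta, and in the lower row Ndufs1, Sdha and Uqcrc2 overlap between groups.

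Across complexes, 18 expressed subunits rose with all 5 metals, among them Ndufa1, Ndufa3, Uqcrh, Uqcrq, Cox6a1, Cox6b1, Cox7c, Atp5f1e, Atp5mc2 and Atp5mc3. A further 36 rose with 4 metals, 14 with 3, 1 (Ndufa10, an accessory subunit of complex I) with 2 and 3 (Atp5f1a, Sdhd and Uqcrfs1) with 1. The 4 that rose with none were Ndufs1, Sdha, Sdhc and Uqcrc2.

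The mean log2 CPM over the 76 expressed subunits was 7.65, 7.80 and 7.99 (lowest, median and highest) with W, 7.83, 7.94 and 8.16 with Co, 7.81, 8.08 and 8.27 with Al, 8.31, 8.39 and 8.78 with Pb, 7.12, 8.02 and 8.22 with DU and 7.14, 7.49 and 7.63 with Ta. All W, Co, Al and Pb libraries and 6 of 8 DU libraries lay above every Ta library, and DU replicate 6 lay below all of them. The share of all counts that fell on these genes had medians of 2.49% with W, 2.63% with Co, 2.98% with Al, 3.12% with Pb, 2.99% with DU and 2.24% with Ta. Every Pb library lay above every Ta library for each of the 5 complexes. For complex II the range with Pb, 8.48 to 8.65, lay inside the Co range of 8.28 to 8.68, and the Ta range was 7.93 to 8.44.

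**Figure D3:**
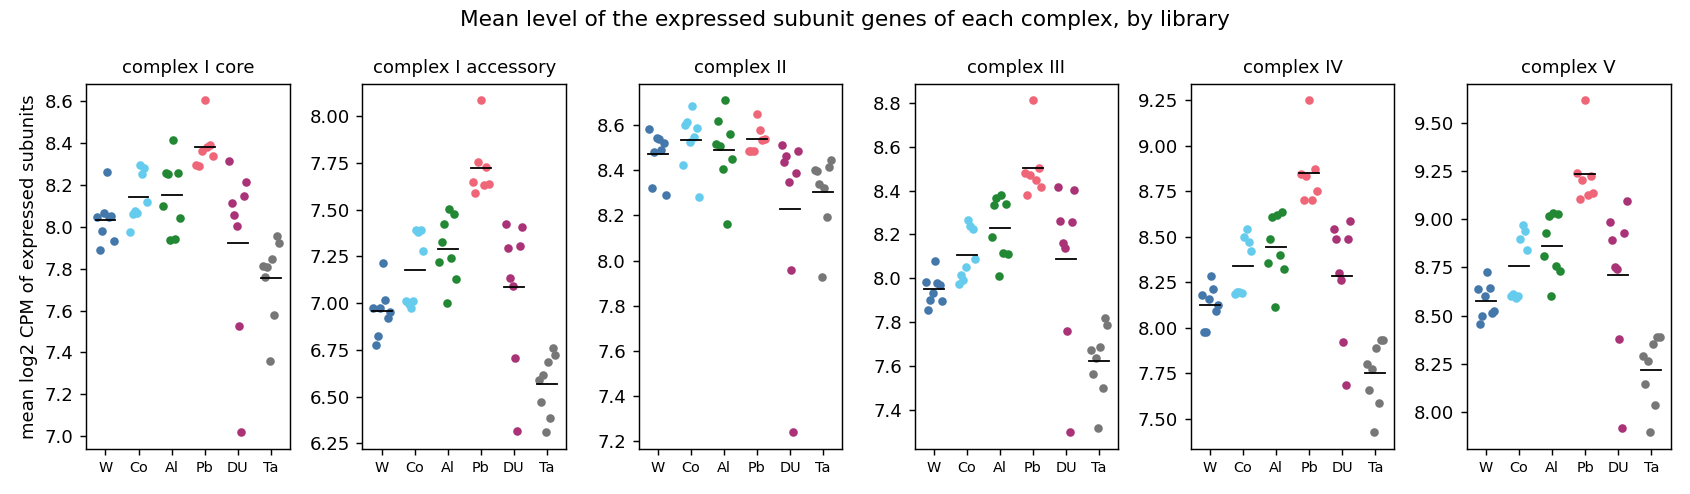
The vertical axes give the mean log2 CPM of the expressed subunits of each complex, each on its own scale, with 1 point per library and a bar at the group mean. Pb has the highest group mean in each panel, by 8.54 against 8.53 with Co for complex II, and DU replicate 6 is the low DU point in each.

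Because each library holds both genes of a pair, a ratio within a library does not depend on its scaling. Pairs were chosen after their values were seen and are given without a test. Gene length sets the level of a ratio, so only its differences between groups are read. Each pair sets a small subunit over a larger one. The balance of ribosomal over very large protein genes, given below, also differed between groups. Its part in these ratios was not tested. The log2 ratio of Ndufa3 to Ndufs1 had medians of -2.04 with W, -1.72 with Co, -1.28 with Al, -0.55 with Pb, -1.20 with DU and -2.77 with Ta. The Ta range was exceeded in 7 of 8 W libraries and in all libraries of the other 4 metals, DU replicate 6 included. For Uqcrq over Uqcrc2 the range was 0.31 to 0.83 with Pb and -0.36 to 0.14 with DU, against -1.75 to -0.81 with Ta. For Cox7c over Cox5a it was -0.30 to 0.23 with Pb and -0.31 to -0.01 with DU, against -1.21 to -0.90 with Ta. Both ratios separated Al, Pb and DU kidneys from Ta kidneys without overlap. Atp5me over Atp5f1a ranged from -4.12 to -3.37 with Pb and -5.79 to -5.17 with Ta. In complex II, Sdhb over Sdha lay at -0.60 to -0.40 with Pb, without overlap with -1.22 to -0.86 in Ta kidneys.

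**Figure D4:**
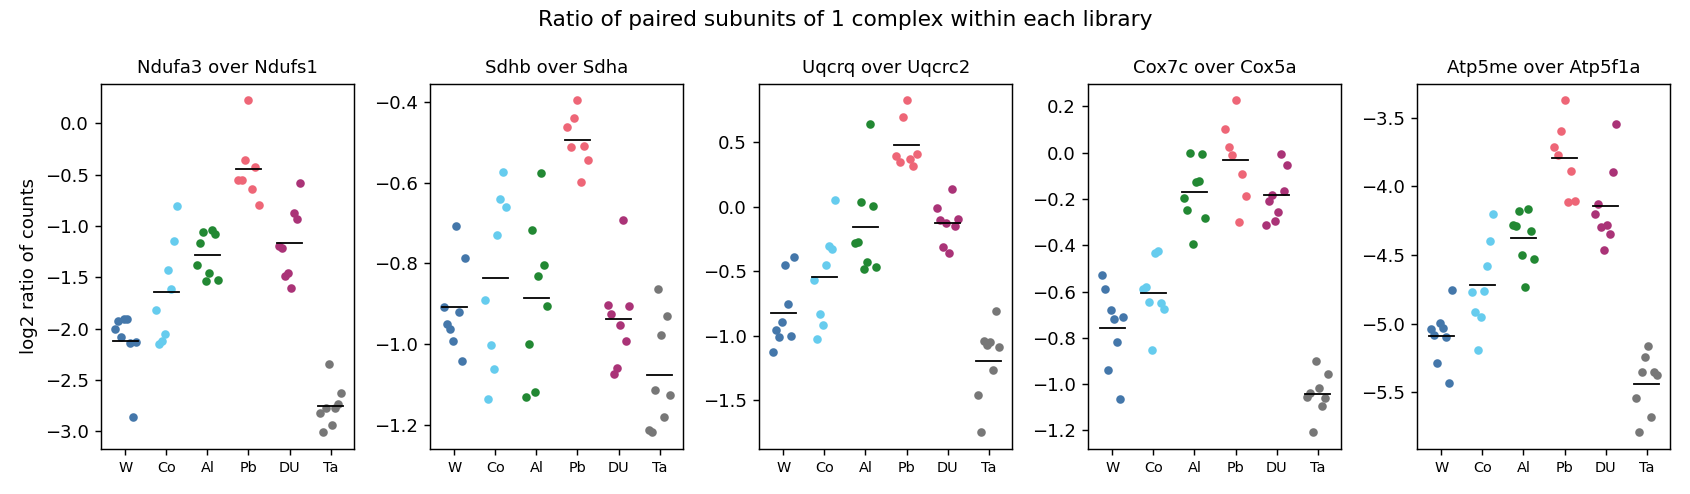
The vertical axes give the log2 ratio of counts of paired subunits of 1 complex, with 1 point per library and a bar at the group mean. The Ndufa3 to Ndufs1 ratio has a median of -0.55 with Pb and -2.77 with Ta, and Al, Pb and DU points lie above all Ta points in every panel but that of Sdhb over Sdha.

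The metals also differed among themselves, in tests that leave the Ta kidneys out of the contrast. Of 85 members, 71 differed between the 5 metals other than Ta, where 53.2% of all genes did. Pb kidneys were higher than W kidneys for 66 members (17.5% of all genes) and lower for 2 (21.5%), higher than Co kidneys for 59 (11.3%) and lower for 1 (14.5%), higher than Al kidneys for 54 (7.98%) and lower for 0 (11.1%; 0 at an unadjusted p under 0.05, 3 by limma and 0 by DESeq2), and higher than DU kidneys for 71 (23.7%) and lower for 1 (25.9%). Cox7c was higher with Pb than with W by 1.21 ± 0.12, than with Co by 0.89 ± 0.12, than with Al by 0.49 ± 0.12 and than with DU by 0.65 ± 0.12 (log2; adjusted p = 3.33e-10, 2.64e-06, 0.00351 and 1.84e-05). The members lower with Pb included Uqcrc2, at -0.33 ± 0.11 against W and -0.32 ± 0.11 against Co (adjusted p = 0.0202 and 0.035), Ndufs1, at -0.37 ± 0.13 against W (adjusted p = 0.0175), and the weakly expressed Cox6b2, at -1.43 ± 0.56 against DU (adjusted p = 0.0304). Every Pb library exceeded every W library for 56 expressed subunits (6.26% of all genes), every Co library for 40 (3.18%), every Al library for 25 (1.63%) and every DU library for 35 (9.53%). Without Pb replicate 4 the members higher with Pb than with Al numbered 32 (4.81% of all genes), and against a fold of 1.2 they numbered 0. With a covariate for the balance of ribosomal over very large protein genes Pb kidneys were higher than W kidneys for 24 members (1.4% of all genes), than Co kidneys for 18 (1.55%), than Al kidneys for 0 (0%; 26 at an unadjusted p under 0.05) and than DU kidneys for 13 (8.42%). In that fit 29 of the 85 members differed among the 5 metals. The share of all genes is not given here for it, so this count is not read further.

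Members left out of the expressed set were low or uncertain. The copies Atp5hl1 and Ndufb4l1-ps1 and the tissue isoforms Cox7b2 and Cox8c, with at most 20 counts in any library, were not tested. Ndufs6, a complex I subunit, was listed at 0 to 30 counts per library, and RefSeq lists the name also as a synonym of the pseudogene Ndufs6-ps1, so its level is uncertain. So are those of Cox7a2l2, Ndufa10l1 and Ndufa13-ps1, since the authors' counting could have split reads between them and Cox7a2l, Ndufa10 and Ndufa13. Cox7a1 was not analysed here.

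The upstream DNA of these genes is shown because some letters occur both in members that rose and in a member that gave no call. This held for the ETS letters (Ndufs1 gave no call) and the NRF1 letters with a free base (Sdha), described below. The other letters were in none of the 4 expressed subunits that rose with no metal. In the RefSeq promoter table (GRCr8), which gives 250 bases before and 50 after each gene's start, 67 of the 76 expressed subunits had a window. On either strand, the letters GCGCATGCG, of the kind NRF1 binds, were found in 6 of the 67 (8.96%, against 1.66% of all 27457 windows), and with 1 base left free (GCGCANGCG, which includes the first) in 17 (25.4%, against 6.26%). CCGGAAGT, an ETS site of the kind GABPA binds, was found in 8 (11.9%, against 4.01%), AAGATGGCG, a YY1 site, in 9 (13.4%, against 1.93%), and TCAAGGTCA, an ERR site, in 2 (2.99%, against 0.412%). These are matches of letters, not measured sites. The median Pb change over Ta was 1.203 for the 8 members with the ETS letters and 1.01 for those without. It was 1.06 with and 1.01 without the YY1 letters, 1.09 with and 1.02 without the NRF1 letters with no free base, 1.01 with and 1.03 without those with a free base, and 0.68 for the 2 members with the ERR letters and 1.04 for those without. These differences were not tested, and their signs differ between motifs. Shown 5′ to 3′ on the strand of the gene, with matched letters in capitals, are Atp5me (NRF1, where matches on both strands overlap), Cox5b and Uqcrq (ETS) and Ndufs7 (YY1), which rose with Pb, and Ndufs1 (ETS, on the other strand), which gave no call.
Atp5me (chr14:1464610-1464909, plus strand): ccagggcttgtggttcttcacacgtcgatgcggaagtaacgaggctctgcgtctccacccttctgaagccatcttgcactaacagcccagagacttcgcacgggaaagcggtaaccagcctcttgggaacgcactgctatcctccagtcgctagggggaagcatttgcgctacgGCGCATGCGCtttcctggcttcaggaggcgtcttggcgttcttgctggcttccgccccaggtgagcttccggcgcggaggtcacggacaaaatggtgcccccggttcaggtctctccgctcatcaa
Cox5b (chr9:46417587-46417886, plus strand): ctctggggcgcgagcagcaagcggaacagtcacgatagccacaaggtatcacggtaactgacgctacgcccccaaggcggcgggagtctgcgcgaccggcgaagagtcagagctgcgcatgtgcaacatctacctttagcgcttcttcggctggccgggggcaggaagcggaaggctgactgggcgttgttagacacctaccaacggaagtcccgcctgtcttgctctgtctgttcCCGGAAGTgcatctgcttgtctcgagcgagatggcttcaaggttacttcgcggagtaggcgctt
Uqcrq (chr10:38089929-38090228, minus strand): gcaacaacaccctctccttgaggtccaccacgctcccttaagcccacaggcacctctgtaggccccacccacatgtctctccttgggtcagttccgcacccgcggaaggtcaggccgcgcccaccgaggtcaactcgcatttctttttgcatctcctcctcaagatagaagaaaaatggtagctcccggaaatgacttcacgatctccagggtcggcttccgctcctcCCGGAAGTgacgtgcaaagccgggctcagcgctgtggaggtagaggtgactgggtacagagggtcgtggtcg
Ndufs7 (chr7:10110449-10110748, minus strand): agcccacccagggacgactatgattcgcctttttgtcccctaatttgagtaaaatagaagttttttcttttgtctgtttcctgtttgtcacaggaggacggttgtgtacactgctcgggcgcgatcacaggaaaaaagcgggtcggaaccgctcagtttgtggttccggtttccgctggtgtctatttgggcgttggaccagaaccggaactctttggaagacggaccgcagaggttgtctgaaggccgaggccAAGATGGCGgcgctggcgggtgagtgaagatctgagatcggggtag
Ndufs1 (chr9:72073556-72073855, minus strand): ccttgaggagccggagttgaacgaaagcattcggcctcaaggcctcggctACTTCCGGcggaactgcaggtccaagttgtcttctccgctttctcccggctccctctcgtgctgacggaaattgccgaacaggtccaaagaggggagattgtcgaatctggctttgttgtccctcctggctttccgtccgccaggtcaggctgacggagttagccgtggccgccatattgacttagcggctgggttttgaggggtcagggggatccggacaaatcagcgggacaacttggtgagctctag

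Genes that serve these complexes gave calls in both directions with Pb. Over all tested genes, 24.5% rose and 29.2% fell with Pb, 13.6% rose and 12.2% fell with Co, 12.8% rose with Al, 7.89% rose and 7.39% fell with DU and 1.42% rose with W. Of 49 tested assembly factors, which build the complexes without staying in them, 31 rose and 8 fell with Pb, 25 rose and 1 fell with Co, 22 rose with Al, 10 rose and 5 fell with DU, and 4 rose with W. Among the Pb rises were Uqcc2, an assembly factor of complex III (1.58 ± 0.15), Cox14 and Cox17, which act in complex IV assembly (1.47 ± 0.11 and 1.40 ± 0.13), and Ndufaf8 of complex I (1.46 ± 0.13), while Coa5 of complex IV (-1.41 ± 0.25) and Ndufaf4 of complex I (-0.94 ± 0.18) fell. Of 12 electron carriers and ADP/ATP exchangers, 9 rose with Pb, among them the cytochrome c gene Cycs (0.53 ± 0.19) and the ADP/ATP carrier Slc25a4 (0.73 ± 0.08).

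Against the same shares of all genes, the 13 mitochondrially encoded subunits gave 10 rises with Pb, 6 with Co, 1 with Al, 1 with DU and 0 with W (3 with W at an unadjusted p under 0.05), and 1 fall with DU. ND3, a short subunit of complex I, rose by 1.03 ± 0.20 with Co, 1.07 ± 0.20 with Al, 1.85 ± 0.20 with Pb and 0.99 ± 0.20 with DU, whereas the median of the 13 with Pb was 0.40. Of 13 citric acid cycle genes 5 rose and 6 fell with Pb, where 24.5% and 29.2% of all genes did. Malate dehydrogenase Mdh2 rose (0.52 ± 0.10), and citrate synthase Cs (-0.44 ± 0.07) and the oxoglutarate dehydrogenase subunit Ogdh (-0.78 ± 0.12) fell. Of 14 regulators of respiratory genes 4 rose and 4 fell with Pb, which is near those shares of all genes. Ppargc1a, the coactivator of mitochondrial biogenesis, fell with Pb (-1.70 ± 0.23, adjusted p = 4.31e-08), Co (-0.72 ± 0.22) and Al (-0.84 ± 0.22), and Gabpa, the ETS factor, fell with Pb (-0.79 ± 0.17), while Esrra, the orphan receptor ERR alpha, rose with Pb (0.40 ± 0.08) and Slirp, which stabilises mitochondrial mRNA, rose with Pb (1.57 ± 0.18). The transcription factor Nrf1 gave no call (-0.13 ± 0.14 with Pb, adjusted p = 0.449). Genes named in these lists were chosen after their values were seen.

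Markers of other cell types also differed between metal and Ta kidneys, and not in the same direction with every metal. Over all tested genes, 24.5% rose and 29.2% fell with Pb, 12.8% and 12.4% with Al, and 13.6% and 12.2% with Co. With DU 7.89% rose and 7.39% fell, and with W 1.42% and 0.366%. A single call in lists this short is not read as a change of the cell type. With Pb, 6 of 6 podocyte, 6 of 6 endothelial and 6 of 6 fibroblast and pericyte markers fell, as did 7 of 11 proximal tubule markers. Podocyte markers summed to 39.9 to 91.0 CPM in Pb and 166 to 407 CPM in Ta kidneys, and endothelial markers to 35.3 to 69.3 in Pb and 166 to 229 in Ta. Fibroblast and pericyte markers summed to 92.5 to 134.8 in Pb and 242 to 703 in Ta, and proximal tubule markers to 9311 to 11814 in Pb and 10029.6 to 15426 in Ta. As mean log2 CPM, proximal tubule markers were 7.49 to 8.33 in Pb and 9.05 to 9.37 in Ta kidneys, without overlap. By that measure 7 of 7 Pb, 8 of 8 Al, 7 of 8 Co, 4 of 8 W and 3 of 8 DU libraries lay below every Ta library. Above every Ta library lay 4 W, 2 DU and 1 Co libraries. The lowest podocyte marker, Wt1, averaged 1.76 CPM in Pb and 10.8 CPM in Ta kidneys, and no marker of these 4 lists averaged 0 in either group. With Al, 6 of 6 podocyte, 5 of 6 endothelial, 4 of 6 fibroblast and pericyte and 4 of 11 proximal tubule markers fell. With Co, 6 of 6 fibroblast and pericyte, 1 of 6 podocyte and 1 of 6 endothelial markers fell, and with W 2 of 6 fibroblast and pericyte markers, and the mean of that list lay below every Ta library in 6 of 8 W libraries. In DU kidneys podocyte markers summed to 90.4 to 333 CPM, endothelial markers to 149 to 307 and fibroblast and pericyte markers to 214 to 824. The mean log2 CPM with DU, less that of Ta, was -0.53 for podocyte, 0.11 for endothelial and 0.26 for fibroblast and pericyte markers. All of these differences were negative with W, Co, Al and Pb. Of 5 intercalated cell markers, of a collecting duct cell rich in mitochondria, 3 rose with Pb, 2 with Co and 1 with Al. Their mean log2 CPM was 6.855 to 7.09 in Pb and 6.25 to 6.847 in Ta kidneys, so that all 7 Pb libraries lay above every Ta library. Of 7 principal cell markers 3 rose and 1 fell with Pb. Both tested distal convoluted tubule markers fell with Pb, and the mean of the list was 5.05 to 7.203 in Pb and 7.07 to 8.25 in Ta kidneys. Of 4 thick ascending limb markers 2 fell with Pb, 1 with Co and 1 with DU. Of 5 macrophage markers 2 rose with DU and 2 fell with Pb, with a mean log2 CPM of 3.03 to 5.73 in DU and 2.12 to 4.29 in Ta kidneys. Of 4 tested adipocyte markers 3 rose with Pb. The part of these changes in the subunit results was not tested. The fit that follows leaves out podocyte, endothelial, and fibroblast and pericyte markers. With Pb and Al its proximal tubule mean and the metal cannot be told apart. With the mean levels of proximal tubule and collecting duct markers as covariates, 6 members rose with W (0.302% of all genes), 68 with Co (9%), 62 with Al (6.28%), 70 with Pb (16.9%) and 61 with DU (7.52%).

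Genes of ribosomal proteins, which are short, and genes of very large proteins also moved apart. The difference of their mean log2 CPM, ribosomal less very large, was 2.75 to 3.70 with W, 3.15 to 4.39 with Co, 3.05 to 4.44 with Al, 4.20 to 5.31 with Pb, 3.12 to 4.21 with DU and 2.40 to 3.17 with Ta. Pb and Ta kidneys did not overlap in it. With this balance as a covariate, 42 of 85 members rose with Pb (2.45% of all genes), 34 with DU (2.97%), 32 with Al (1.69%), 2 with Co (0.0378%) and 0 with W (0%; 53 at an unadjusted p under 0.05, and no other tool was run with this covariate). The median change of the expressed subunits in that fit was 0.65 with Pb, 0.34 with DU, 0.40 with Al, 0.36 with Co and 0.27 with W. Ndufa3, Uqcrq, Cox7c and Atp5me remained called with Pb, Al and DU, at 1.65 ± 0.31, 0.87 ± 0.18, 1.24 ± 0.18 and 1.43 ± 0.29 with Pb. The balance lay above every Ta library in 7 of 7 Pb libraries, in 7 of 8 libraries each of Co, Al and DU and in 4 of 8 of W. Those 4 W libraries were the ones numbered 5 to 8, at 3.27 to 3.70 against 2.75 to 3.14 in W libraries 1 to 4. With Co the balance was 4.003 to 4.39 in libraries 5 to 8 and 3.15 to 3.54 in libraries 1 to 4. The 2 number ranges overlapped in the other groups. The part of this split in the balance results was not tested. In Pb kidneys the balance and the metal cannot be told apart. The same limit holds in large part with Co, Al and DU, and in lesser part with W.

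**Figure D5:**
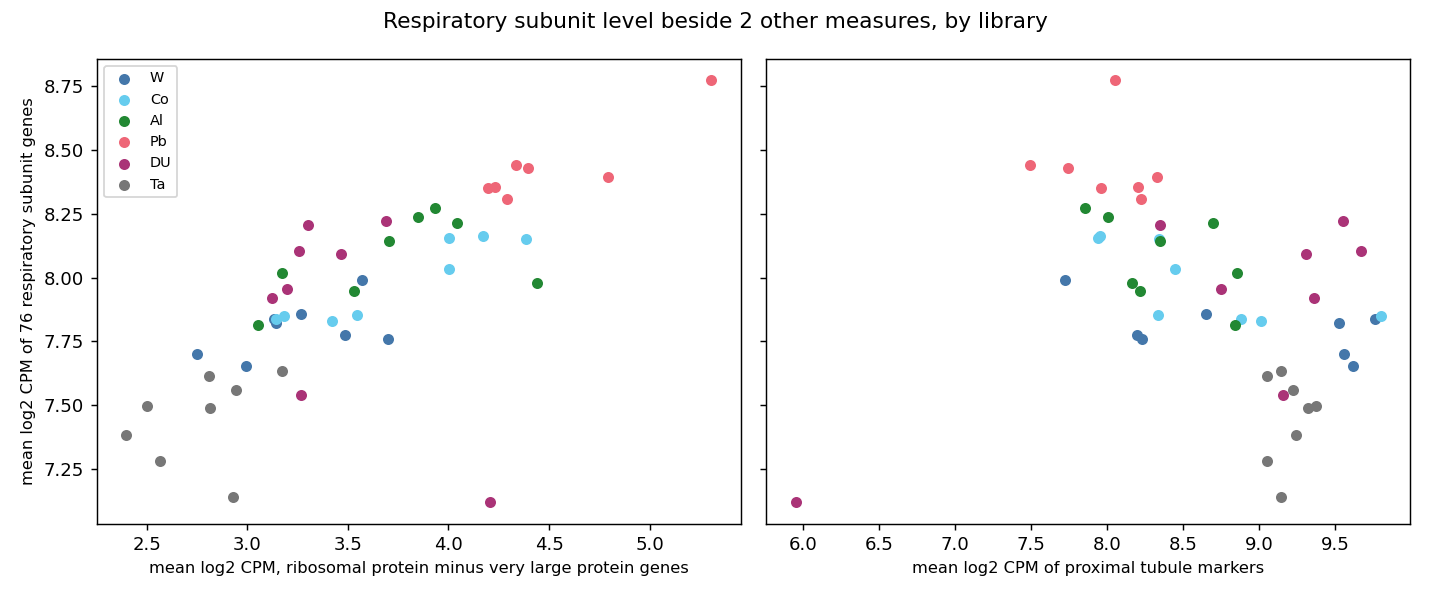
The vertical axes give the mean log2 CPM of the 76 expressed subunits in each library, the left horizontal axis the log2 balance of ribosomal over very large protein genes and the right one the mean log2 CPM of proximal tubule markers, with colours for the metals. Pb libraries lie at 8.31 to 8.78 with a balance of 4.20 to 5.31, Ta libraries at 7.14 to 7.63 with 2.40 to 3.17, and the DU point at 7.12 is replicate 6.

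The calls rested on the libraries that stood apart to different degrees. Without DU replicate 6, 73 members rose with Co (17.5% of all genes), 73 with Al (15.8%), 74 with Pb (26.4%) and 62 with DU (7.5%). By complex, the DU rises without it were 4 of 7 core and 24 of 27 accessory subunits of complex I, 0 of 4 of complex II, 7 of 9 of complex III, 11 of 12 of complex IV and 15 of 17 of complex V. The median change with DU was then 0.60 over the expressed subunits, and Sdhb reached 0.22 with an adjusted p of 0.0635. Without Pb replicate 4, 74 members rose with Pb (23.1% of all genes), and the median Pb change was 0.96. Without Ta replicates 4 and 6, 0 members rose with W (0.00626% of all genes), 64 with Co (11.5%), 62 with Al (11.8%), 73 with Pb (24.2%) and 47 with DU (10.3%).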

How the data were processed

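RNA was isolated from kidney tissue with TRIzol and treated with DNase, and libraries were made by a company, per the labels' protocols. Reads were processed with STAR 2.7.2a and featureCounts of Subread 1.6.4 on the build mRatBN7.2, per the submitters' processing notes; the annotation, strand setting and handling of multi-mapping reads are not given in the sources used here, so near-identical copies are uncertain. The deposited table holds raw counts per gene for 47 libraries, with 22525 named genes after 29 lines without a gene name were left out. The counts were fitted in 1 model of the 6 groups with edgeR 4.0.16 (R 4.3.3; TMM scaling, filterByExpr, quasi-likelihood F test, two-sided), and p-values were adjusted by the Benjamini-Hochberg method over 15868 tested genes. A call is an adjusted p under 0.05. CPM are counts scaled to a common depth by the TMM-scaled library total, and log2 CPM used a prior count of 2. Fold changes carry their standard error (SE).

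Alternatives were limma 3.58.1 (voom with quality weights), DESeq2 1.42.0, other filters, scalings and covariates, a replicate block, and each library left out. The test was tried on simulated data. Members and lists were chosen with earlier results of these data known. Named genes are, by complex and metal, the 2 calls with the smallest p in each direction, together with the complex II genes, isoform pairs, Atp5if1 and the most abundant member of each complex. No shared deviation of same-numbered libraries was seen over 115 pairs (median r 0.0116). A median near zero cannot exclude that the numbers pair the rats or mark a batch. No library pair within a group agreed within counting noise. Promoter windows came from RefSeq (GRCr8), 250 bases before to 50 after each start, and no coordinate was carried to the build of the counts.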

Additional observations from a re-analysis of the deposited data

Results flagged for a closer look

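In 27 of 204 groups looked at (1 gene or mean in 1 metal each), 1 library lay far from the rest by Dixon's criterion, where chance alone marks about 1 in 20 groups, and genes of 1 library are not independent. Of these, 20 were Pb replicate 4 lying high. Its mean log2 CPM of the expressed subunits was 8.78 against 8.31 to 8.44 in the other Pb kidneys. By complex it was 8.61 against 8.29 to 8.39 for the core of complex I, 8.09 against 7.59 to 7.75 for its accessory subunits, 8.81 against 8.38 to 8.50 for complex III, 9.25 against 8.70 to 8.87 for complex IV and 9.62 against 9.11 to 9.24 for complex V.

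Among single genes, Pb replicate 4 held more CPM than the other Pb kidneys of Ndufa3, at 308 against 143.99 to 195, Ndufa13, at 307 against 204 to 239, and Ndufb8, at 601 against 388 to 475. The same held for Sdhb, at 514 against 438 to 465, Uqcrh, at 379 against 251 to 300.3, and Uqcrq, at 561 against 359 to 414 CPM. In complex IV its values were 1075 against 746 to 879 CPM for Cox6a1, 583 against 372 to 418 for Cox6b1, 303 against 166 to 199.95 for Cox7a2 and 731 against 395 to 515 for Cox7c. In complex V they were 789.6 against 458 to 544 CPM for Atp5f1e, 783 against 560.5 to 602 for Atp5mc2, 1061 against 739.6 to 836 for Atp5mc3 and 285 against 153 to 207 for Atp5me. The 14 genes lay above every Ta kidney in the other 6 Pb kidneys too.

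W replicate 5 lay high for the core of complex I, at a mean log2 CPM of 8.26 against 7.89 to 8.06 in the other W kidneys, and for Ndufs7, at 265 against 173 to 209 CPM. DU replicate 6 lay low for complex II, at 7.24 against 7.96 to 8.51 in the other DU kidneys, and for Sdhc, at 119 against 222 to 295 CPM. Ta replicate 4 lay low for Sdha, at 457 against 597 to 721 CPM in the other Ta kidneys, and for Sdhd, at 135.1 against 191 to 215 CPM. Al replicate 6 lay low for Sdha, at 491 against 662 to 783 CPM in the other Al kidneys.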

How the results depend on the processing

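The counts of members that rose were near those reported under most alternatives for Co, Al, Pb and DU over Ta, and they moved furthest with W. With W, 18 (225 of all genes) became 29 (343) with scaling that left out mitochondrially encoded genes, 10 (99) with no filter, 36 (475) with a strict filter, 32 (177) when only the groups compared were fitted, 33 (198) by limma, 41 (532) by DESeq2 and 0 (3) at an adjusted p of 0.01. A test against a fold of 1.2 gave 0 with W, 37 with Co and 32 with DU, and for Pb 31 over Co and 0 over Al; it gives no value for the joint test of 5 metals. The balance covariate gave 0 with W, 2 with Co, 32 with Al, 42 with Pb and 34 with DU, and for Pb 24 over W, 18 over Co, 0 over Al and 13 over DU, with 29 in the joint test. Cell make-up covariates gave 6 with W. Without Ta replicates 4 and 6 it was 0 with W, and without DU replicates 5 and 6 it was 63. At an adjusted p of 0.01, 31 were higher with Pb than with Al.

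Members called lower were few throughout: 1 with W without DU replicates 5 and 6 and by DESeq2, 1 with Co by DESeq2, 1 with Al by limma, and with Pb 1 without Ta replicates 4 and 6, 1 without DU replicates 5 and 6, 1 with only the groups compared and 3 by limma. For Pb over W they were 0 with the balance covariate, a fold of 1.2 or an adjusted p of 0.01, and 1 with cell make-up. For Pb over Co they were 0 with the balance covariate, a fold of 1.2 or an adjusted p of 0.01, 3 without DU replicates 5 and 6, 2 with only the groups compared and 3 by limma. For Pb over Al limma gave 3. For Pb over DU they were 4 by limma, and 0 with either kind of covariate, a fold of 1.2, an adjusted p of 0.01 or without DU replicates 5 and 6. The cause was not tested.

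Leaving out 1 library gave 1 (without W replicate 5) to 55 (without DU replicate 6) rises with W, 67 to 73 with Co, 67 to 73 with Al, 73 to 75 with Pb and 50 to 62 with DU. For Pb they ran from 63 to 69 over W, 51 to 62 over Co, 32 (without Pb replicate 4) to 59 over Al and 67 to 72 over DU, and the joint test from 67 to 71. Lower calls ran from 0 to 1 with W, 0 to 1 with Co, 0 to 1 with Pb, 2 to 3 for Pb over W, 0 to 2 for Pb over Co and 0 to 1 for Pb over DU.

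With the replicate number as a block, 17 members rose with W, 69 with Co, 70 with Al, 73 with Pb and 55 with DU, and 70 differed among the 5 metals; for Pb 64 were higher than W, 59 than Co, 55 than Al and 72 than DU. No pairing of rats by number was seen. Of the called pairs of a named gene and a metal, 0 reversed and 57 lost the call under at least 1 alternative, 13 of them without a single library (9 of 10 with W, 0 of 24 with Co, 1 of 24 with Al, 1 of 26 with Pb and 2 of 20 with DU).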
